A study of Mus musculus with 12 samples.

Results

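The comparison set wild-type white matter astrocytes after 12 weeks of cuprizone against the same kind of cells after 3 weeks, that is, prolonged against early exposure. It rests on 3 arrays of each time, 6 of the 12 arrays of the series, chosen by genotype and weeks of diet in the sample titles, and on every transcript cluster that carried 1 gene symbol. The mice were C57BL/6, and a powdered diet with 0.2% cuprizone began when they were 8 to 12 weeks old. The other arrays were 3 from wild-type mice at 0 weeks and 3 from GnT-IX-deficient mice at 12 weeks, and their values are given beside those of the 6 arrays compared. Papain was used to dissociate the white matter, and after a block of Fc receptors the cells were pulled out with anti-GLAST microbeads, GLAST being the glutamate transporter that Slc1a3 encodes. The 12-week mice were also older at sampling than the 3-week mice, so weeks of diet and age cannot be told apart. The labels call the 3 arrays of a group independent biological replicates, but do not say whether animals were pooled.

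Cuprizone is a copper chelator that kills mature oligodendrocytes and so strips the myelin of white matter, while precursors divide and microglia and astrocytes become reactive. Early in the diet oligodendrocytes die and stress pathways are switched on in glia. With prolonged feeding the white matter stays poor in myelin and holds a glial scar with many phagocytes. Astrocytes in this setting supply lipids, growth factors and matrix, and take up transmitters and debris.

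Values are log2 expression after robust multi-array averaging (RMA), and a difference is the mean of the 3 arrays at 12 weeks minus the mean of the 3 at 3 weeks. Each difference was tested with limma in 1 fit of all 12 arrays, and a gene was called changed when its Benjamini-Hochberg adjusted p over all genes was at most 0.05. Errors after ± are SDs over 3 arrays. The verbs rose and fell are kept for called genes. With 3 arrays a group, precision is limited by their number.

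The 6 arrays held 19505 genes with medians between 5.49 and 5.54, and arrays of the same time correlated across genes with r of 0.974 to 0.979 at 3 weeks and 0.979 to 0.982 at 12 weeks. Genes are not independent replicates, so these r only describe the arrays. Replicate 1 at 3 weeks stood apart in its microglial markers. The mean of 15 microglia and macrophage markers was 8.76 in replicate 1 at 3 weeks, against 6.96 and 6.44 in replicates 2 and 3, and it was 7.85, 8.91 and 7.96 at 12 weeks and 5.25 to 5.74 at 0 weeks. The number of calls and the median of the microglial markers are therefore given with and without it. Values of single genes include it unless stated. A pair of unnamed transcript clusters also split the groups, with values of 9.29 to 11.18 in the 3-week arrays and 5.13 to 7.47 in the 12-week arrays, although all 6 arrays were labelled wild type. The sex and substrain of the mice are not given in the sources used here, and whether the groups differed in either was not tested. A difference in substrain and weeks of diet cannot be told apart. The Y-linked genes Kdm5d, Eif2s3y and Uty lay at 1.89 to 2.88 in all 6 arrays, below the lower quartile of each array (3.84 to 3.94).

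**Figure D1:**
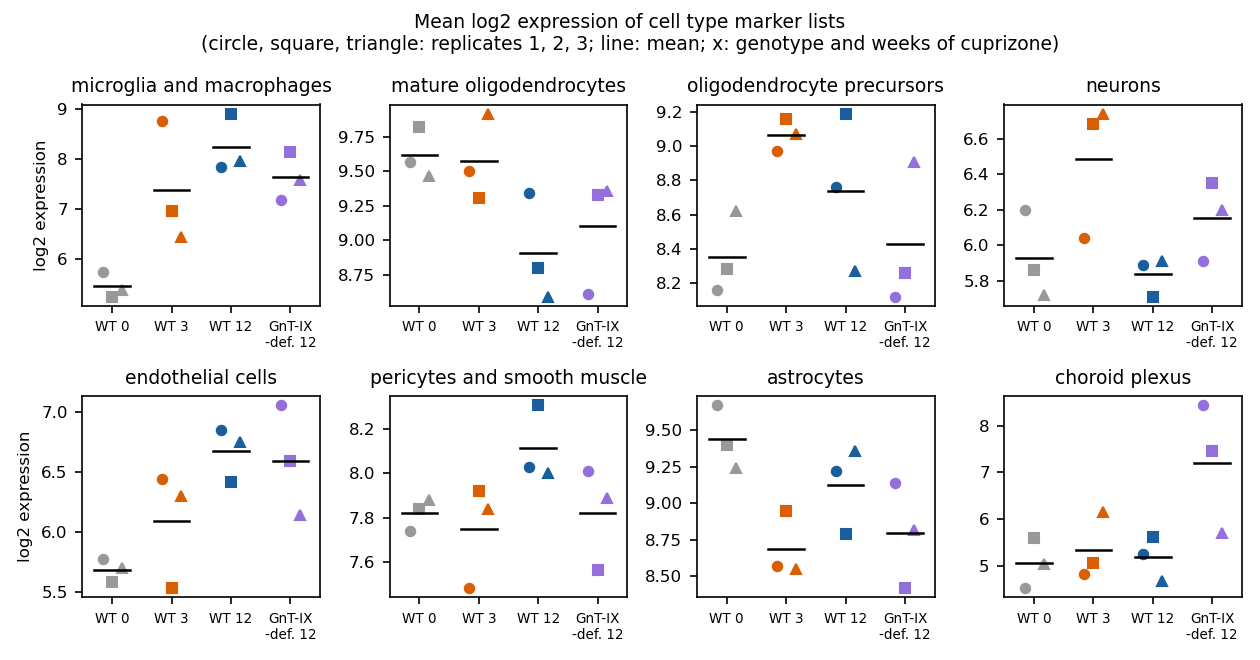
Mean log2 expression of 8 marker lists in each array (y axis) by genotype and weeks of cuprizone (x axis), with circles, squares and triangles for replicates 1, 2 and 3 and a line at each group mean. Replicate 1 at 3 weeks (8.76) lies within the 12-week range of the microglial panel, whereas neuron markers lie at 6.04 to 6.74 at 3 weeks and at 5.71 to 5.91 at 12 weeks.

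The labelled cell type was present at both times. The mean of 10 astrocyte markers was 8.57, 8.95 and 8.55 at 3 weeks and 9.22, 8.79 and 9.36 at 12 weeks, well above the array medians. Slc1a3, the antigen of the isolation, was at 7.00, 7.50 and 6.49 at 3 weeks and at 7.24, 7.05 and 7.61 at 12 weeks, overlapping ranges with a difference of 0.30 (95% interval -0.28 to 0.88, adjusted p = 0.73). The cells were not pure astrocytes, since mature oligodendrocyte markers averaged 9.31 to 9.92 at 3 weeks and 8.59 to 9.34 at 12 weeks. In such bulk samples fewer cells of a type and less RNA per cell cannot be told apart. Among markers of cells that the beads should have left behind, 5 of 8 neutrophil markers and 1 of 4 B cell markers lay below the lower quartile in all 6 arrays. So did 3 of 10 border macrophage and 4 of 10 T and natural killer cell markers, but 0 microglial, endothelial, pericyte or neuron markers. The share over all genes was not counted, so these counts do not measure depletion. Of the neutrophil and B cell markers below the quartile, S100a8 of neutrophils and Jchain of plasma cells lay at 2.09 to 2.93. Of the other markers, Csf3r, the receptor of granulocyte colony-stimulating factor, was at 8.54, 7.08 and 6.16 and then at 8.42, 9.12 and 7.98 (1.25, adjusted p = 0.299), with replicate 1 at 3 weeks again the highest of its group. The neutrophil gene Camp averaged 4.22 and 4.07, and Cd79a of the B cell receptor 3.89 and 4.20. The mean of the neutrophil list was 3.47 to 3.94 at 3 weeks and 3.76 to 3.89 at 12 weeks, and that of the B cell list 3.39 to 3.60 and 3.44 to 3.62.

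Few genes differed between prolonged and early cuprizone at the chosen threshold. Limma called 16 of 19505 genes (0.082%), of which 5 rose (0.0256%) and 11 fell (0.0564%) from 3 to 12 weeks. The called differences ranged in size from 1.25 to 2.22 on the log2 scale, with a median of 1.56. Over all genes the median difference was 0.01, the median size 0.18, and the 5th and 95th percentiles were -0.49 and 0.51. At an unadjusted p under 0.05 there were 2222 genes, 1110 higher and 1112 lower at 12 weeks. A further 169 genes differed by at least 1 on the log2 scale without a call.

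**Figure D2:**
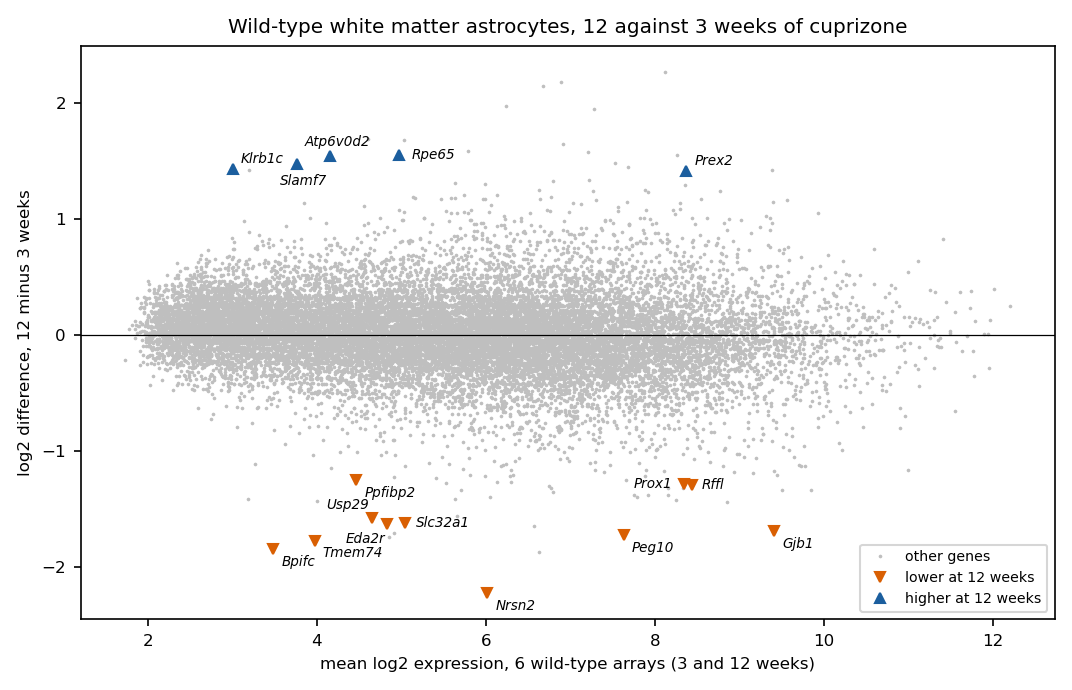
Log2 difference, 12 minus 3 weeks (y axis), against mean log2 expression over the 6 wild-type arrays (x axis), with 1 point per gene. The 5 called rises (upward triangles) and 11 called falls (downward triangles) lie beyond the 5th and 95th percentiles of all genes (-0.49 and 0.51), and some larger uncalled differences lie among the grey points.

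The largest fall belonged to a gene of neuronal vesicles. Nrsn2, which encodes neurensin-2, a membrane protein of small vesicles in neurons, was at 6.28, 7.28 and 7.84 at 3 weeks and at 4.63, 4.97 and 5.14 at 12 weeks. All 3-week arrays lay above all other arrays of the series, and the 12-week arrays overlapped the 0-week values of 3.94 to 4.93. Nrsn2 fell by 2.22, or 4.66-fold (SE 0.33, adjusted p = 0.0212). Slc32a1, the vesicular transporter that loads GABA and glycine into synaptic vesicles, was at 5.42, 5.99 and 6.18 at 3 weeks and at 4.61, 4.03 and 4.08 at 12 weeks. It fell by 1.62 (SE 0.24, adjusted p = 0.0212), with 0-week arrays at 4.12 to 4.78. For both genes replicate 1 at 3 weeks, the array rich in microglial markers, was the lowest of its group.

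Eda2r showed the least spread of the falls at 3 weeks. It encodes a receptor of the tumour necrosis factor receptor family that binds ectodysplasin A2 and is a known target of p53. Its values were 5.72, 5.53 and 5.70 at 3 weeks and 3.72, 3.90 and 4.43 at 12 weeks, against 3.36 to 3.58 at 0 weeks. Eda2r fell by 1.63, or 3.10-fold (SE 0.21, adjusted p = 0.0199). It kept its call in 15 of 20 alternative analyses, the most of any called gene. The fewest were kept by Slamf7 (7 of 19) and Rpe65 (8 of 20). Nrsn2, the largest fall, kept its call in 11 of 20, and in 1 of the 6 fits that left out 1 array.

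A pair of imprinted genes, expressed from the paternal allele, also fell. Peg10, a gene derived from a retrotransposon, was at 8.37, 8.64 and 8.45 at 3 weeks and at 6.92, 6.83 and 6.56 at 12 weeks, and fell by 1.72 (SE 0.27, adjusted p = 0.025). The 0-week arrays lay at 5.64 to 6.59. Usp29, which encodes a deubiquitinating enzyme, was at 4.99, 5.53 and 5.81 at 3 weeks and at 3.87, 3.72 and 4.02 at 12 weeks, and fell by 1.57 (SE 0.24, adjusted p = 0.022). Its 12-week arrays stayed above the 0-week arrays (3.07 to 3.22), and GnT-IX-deficient replicate 3 reached 5.01, within the 3-week range.

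Gjb1 and Prox1 fell below their 0-week levels. Gjb1 encodes a connexin, the gap junction protein of oligodendrocytes and Schwann cells, and was at 10.26, 9.90 and 10.62 at 3 weeks and at 8.63, 8.62 and 8.45 at 12 weeks, where 0-week arrays had 9.57 to 9.94. It fell by 1.69 (SE 0.25, adjusted p = 0.0212). Prox1, a homeobox transcription factor of neural progenitors and lymphatic endothelium, was at 8.84, 9.09 and 9.01 at 3 weeks and at 8.02, 7.82 and 7.25 at 12 weeks, and fell by 1.28 (SE 0.21, adjusted p = 0.0255). Mature oligodendrocyte markers lay lower beside these 2 genes, with all 11 measured members below 0, and their part in the result was not tested. In a fit with their mean as a covariate no gene passed (limma, 1031 genes at an unadjusted p under 0.05). Their mean itself differed between the times, so that fit cannot decide their part. The fit with the microglial mean also called 0 genes. Over all alternatives Gjb1 differed by -1.87 to -1.16 and Prox1 by -1.45 to -0.92.

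The same position below the 0-week arrays was seen for Rffl, Ppfibp2 and Tmem74. Rffl encodes an E3 ubiquitin ligase and went from 9.04, 8.90 and 9.30 to 8.07, 7.80 and 7.50, a fall by 1.29 (SE 0.21, adjusted p = 0.025). Ppfibp2, which encodes the scaffold protein liprin-beta 2, went from 4.97, 5.07 and 5.23 to 3.88, 3.91 and 3.72, a fall by 1.25 (SE 0.17, adjusted p = 0.0199). Tmem74, a membrane protein linked to autophagy, went from 5.11, 4.76 and 4.71 to 2.87, 3.06 and 3.34, a fall by 1.77 (SE 0.28, adjusted p = 0.0254). Bpifc, of the family of lipid-binding proteins that includes the bactericidal permeability-increasing protein, went from 4.03, 4.68 and 4.51 to 2.19, 2.92 and 2.58, and fell by 1.84 (SE 0.25, adjusted p = 0.0199). Bpifc, Tmem74 and Ppfibp2 averaged 2.56, 3.09 and 3.84 at 12 weeks, near or below the lower quartile of the arrays, where RMA compresses differences, so the sizes of their falls are uncertain.

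Of the 5 rises, 3 were in genes whose 3-week arrays lay below those of both other times, Prex2, Rpe65 and Klrb1c. Prex2, a PIP3-dependent exchange factor for Rac, was at 8.02, 7.33 and 7.66 at 3 weeks and at 8.95, 8.83 and 9.45 at 12 weeks, close to the 0-week arrays (9.20 to 9.71). It rose by 1.41, or 2.65-fold (SE 0.22, adjusted p = 0.025). Rpe65, the retinoid isomerohydrolase of the visual cycle, lay between 3.91 and 4.68 at 3 weeks and was at 5.77, 5.15 and 6.32 at 12 weeks, with 0-week arrays at 5.96 to 6.33. It rose by 1.55 (SE 0.27, adjusted p = 0.0492), the weakest call together with Slamf7.

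Klrb1c and the other two rises were in genes best known from immune cells and osteoclasts, and all 3 reached levels above those of every other wild-type array. Atp6v0d2, a subunit of the vacuolar proton pump that is abundant in osteoclasts and macrophages, was at 3.81, 3.13 and 3.22 at 3 weeks and at 4.37, 5.12 and 5.30 at 12 weeks, and rose by 1.54 (SE 0.25, adjusted p = 0.0257). Slamf7, a receptor of the SLAM family on immune cells, went from 3.35, 2.52 and 3.22 to 4.35, 4.93 and 4.21, and rose by 1.47 (SE 0.26, adjusted p = 0.0492). Klrb1c, which encodes the NK1.1 antigen of natural killer cells, went from 2.28, 2.46 and 2.14 to 3.24, 3.62 and 4.30, with 0-week arrays at 2.61 to 2.82, and rose by 1.43 (SE 0.22, adjusted p = 0.025). All 3 averaged below 3.84 at 3 weeks, and Klrb1c also did at 12 weeks (3.72), which leaves the size of each rise uncertain. Klrb1c also belongs to a family of similar genes that probes may not separate. Microglial markers averaged 6.44 to 8.76 at 3 weeks and 7.85 to 8.91 at 12 weeks. Beside them, the 10 T and natural killer cell markers averaged 3.43 to 3.53 at 3 weeks and 3.66 to 3.89 at 12 weeks, which is also near the lower quartile, and the part of either cell type in the result was not tested.

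**Figure D3:**
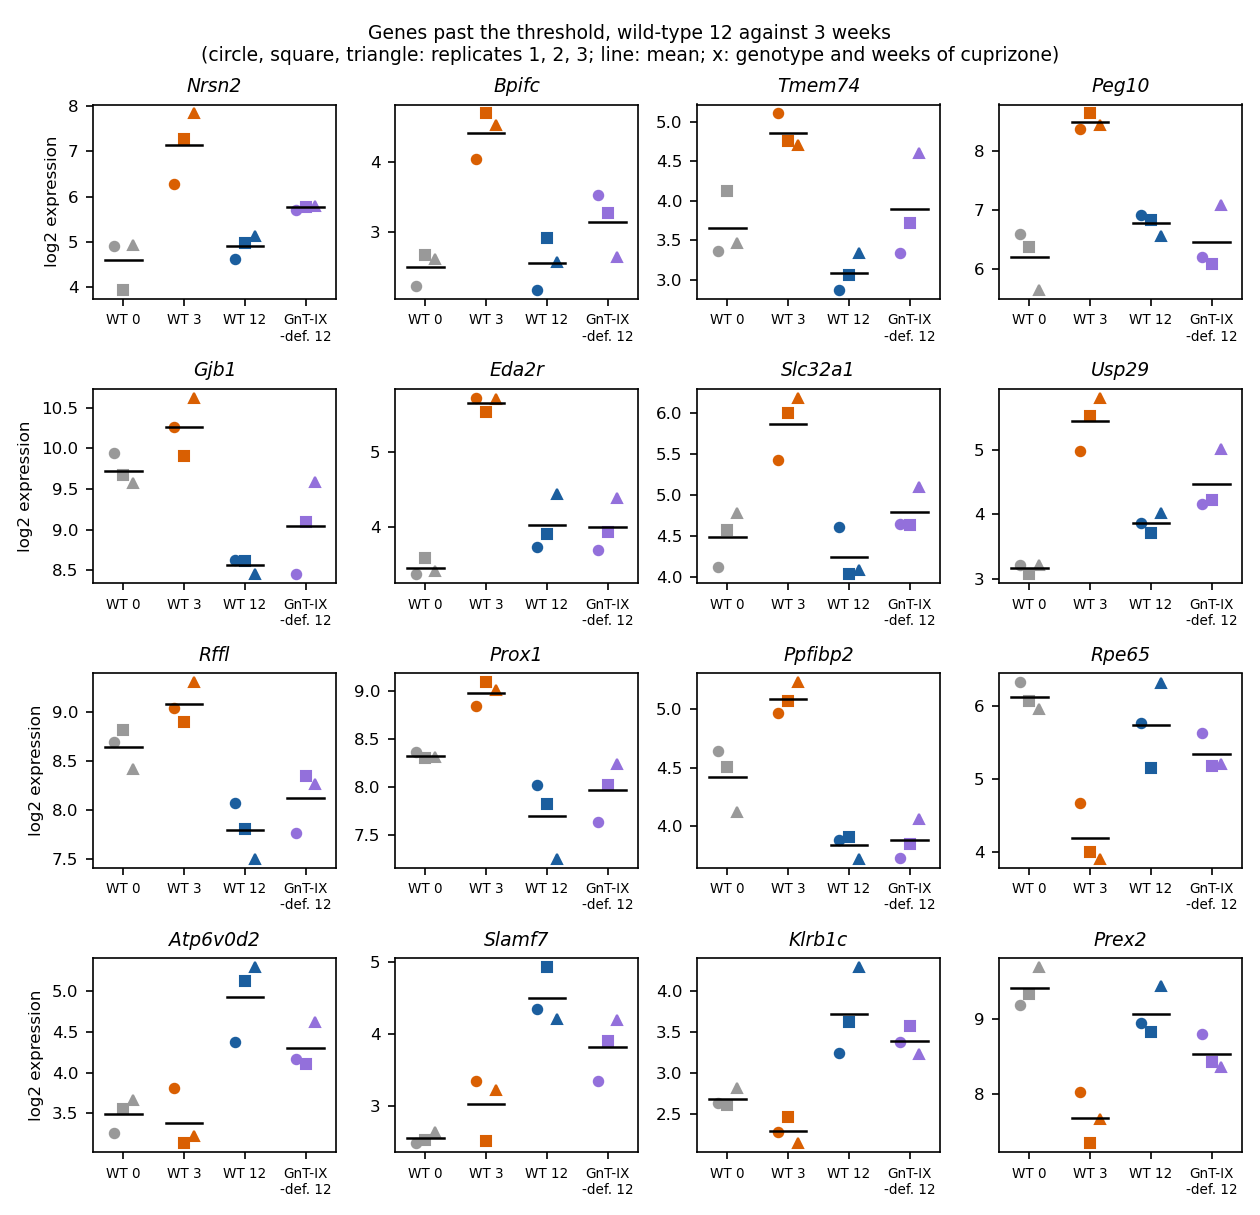
Log2 expression (y axes, not starting at 0) of the 16 called genes by genotype and weeks of cuprizone (x axes), with circles, squares and triangles for replicates 1, 2 and 3 and a line at each group mean. The 3-week arrays stand above all others for 9 of the 11 genes that fell and below all others for 3 of the 5 that rose, counts that were not made over all genes.

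For all 16 called genes the 3 arrays of one time lay beyond the 3 of the other. Non-overlapping arrays were seen for 7.83% of all genes in the direction of a rise and 8.1% in the direction of a fall, so they are common without a call. Set against the arrays that the contrast did not average, the 3-week arrays were the extreme ones for most called genes. They lay above all 9 other arrays for 9 of the 11 falls and below all 9 for Rpe65, Klrb1c and Prex2. The 12-week arrays lay below all other wild-type arrays for 5 falls (Tmem74, Gjb1, Rffl, Prox1 and Ppfibp2) and above them for 3 rises (Atp6v0d2, Slamf7 and Klrb1c). The 3 GnT-IX-deficient arrays, also taken at 12 weeks, lay beyond the 3-week arrays on the same side for 14 of the 16 genes, the exceptions being Slamf7 and Usp29. These readings share arrays with the contrast and are descriptions only. A call already sets the 3-week arrays apart from the 12-week arrays. The same counts were not made over all genes, so they show nothing particular to the called genes.

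The direction of all 16 genes held in each alternative analysis, but the number of calls depended on single arrays. With non-overlapping arrays, neither leaving out nor weighting an array could reverse a direction. Settings that changed only the variance model, filter, threshold, block or other groups in the fit left the difference itself unchanged. The kept direction therefore lends no support. Leaving out replicate 1 at 3 weeks gave 146 calls, whereas leaving out replicate 2 or 3 at 3 weeks gave 4 and 0 (limma, 1751 genes at an unadjusted p under 0.05 in the latter). Leaving out replicate 1, 2 or 3 at 12 weeks gave 13, 2 and 1. When the mean of the microglial markers entered the fit as a covariate, limma called 0 genes and 1876 had an unadjusted p under 0.05.

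Promoters are shown for the genes that fell and whose 3-week arrays lay above all others. The set was picked by that pattern, and shared regulation was not tested. Of those 9 genes, 4 had a single promoter in the RefSeq table of GRCm38.p6, which runs from 250 bases before to 50 bases after the start of each gene. The windows are chr2:152376556-152376855 on the minus strand for Nrsn2, chr10:86011811-86012110 on the minus strand for Bpifc, chrX:97377160-97377459 on the minus strand for Eda2r and chr2:158610508-158610807 on the plus strand for Slc32a1. Capitals mark matches to the motifs searched, and each sequence reads in the direction of its gene.
Nrsn2: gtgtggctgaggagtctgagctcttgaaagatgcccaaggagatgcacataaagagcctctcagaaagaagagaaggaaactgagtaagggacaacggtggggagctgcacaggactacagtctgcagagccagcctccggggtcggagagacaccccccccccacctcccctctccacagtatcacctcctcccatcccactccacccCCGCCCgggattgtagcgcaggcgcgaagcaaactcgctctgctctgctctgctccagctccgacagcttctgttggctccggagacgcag
Bpifc: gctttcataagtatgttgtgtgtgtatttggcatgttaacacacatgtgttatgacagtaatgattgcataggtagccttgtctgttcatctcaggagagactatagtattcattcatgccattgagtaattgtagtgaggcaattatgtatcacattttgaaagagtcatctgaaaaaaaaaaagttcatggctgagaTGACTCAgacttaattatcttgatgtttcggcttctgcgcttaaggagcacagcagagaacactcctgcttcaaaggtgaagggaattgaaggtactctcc
Eda2r: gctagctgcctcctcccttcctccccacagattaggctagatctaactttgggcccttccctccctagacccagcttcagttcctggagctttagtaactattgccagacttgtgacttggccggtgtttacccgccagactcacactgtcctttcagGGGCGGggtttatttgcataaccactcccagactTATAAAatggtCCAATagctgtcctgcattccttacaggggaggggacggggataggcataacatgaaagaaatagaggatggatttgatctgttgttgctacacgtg
Slc32a1: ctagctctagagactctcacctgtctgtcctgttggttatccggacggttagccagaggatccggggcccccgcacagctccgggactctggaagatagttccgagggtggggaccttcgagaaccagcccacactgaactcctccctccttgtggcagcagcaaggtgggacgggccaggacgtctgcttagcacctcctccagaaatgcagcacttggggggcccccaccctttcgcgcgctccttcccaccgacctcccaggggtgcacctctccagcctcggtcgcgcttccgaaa

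Motifs were searched on both strands. A TATA box was any run of the letters TATAAA. The CCAAT box was searched by the 5 letters of its name. A GC box was the run GGGCGG, in either orientation. The cyclic AMP response element was searched as the palindrome TGACGTCA. An AP-1 site, bound by Fos and Jun, was any match to TGANTCA. The p53 half-site was searched as a run of 3 purines, C, A or T in each of the next 2 places, G and 3 pyrimidines. No motif was shared by all 4 promoters. Eda2r held a GC box, a TATA box and a CCAAT box, with first bases at -92, -58 and -47 from the start. Nrsn2 held a GC box on the minus strand at -41, Bpifc an AP-1 site at -51, and Slc32a1 none of these. Among all 32851 promoters of the table, 13.6% held the TATA box, 37.4% the CCAAT box, 35.7% the GC box, 1.79% the cyclic AMP response element, 7.81% the AP-1 site and 8.36% the p53 half-site. The 4 promoters also differed in base composition, with GC contents of 60.3%, 38.7%, 50.3% and 63.3% in the order printed, around a median of 52.7% over the table. Slc32a1 held 17 CpG dinucleotides and Bpifc 2, where the median was 7. A match is a run of letters and not a measured site, and no match says only that these letters are not in the window.

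Beyond the called genes, the uncalled genes with the smallest p and non-overlapping arrays extended both directions. Among those higher at 12 weeks, several had been low at 3 weeks relative to 0 weeks. Hsd11b1, the enzyme that reactivates glucocorticoids, was at 6.62, 6.17 and 7.16 at 3 weeks and at 7.78, 7.63 and 8.27 at 12 weeks, a difference of 1.24 (adjusted p = 0.0708), with 0-week arrays at 7.88 to 8.22. Lxn, a carboxypeptidase inhibitor, differed by 0.92, Hhatl by 0.90, Nckap5 by 0.88, Pdzph1 by 1.31 and Flvcr2, a membrane transporter, by 1.06, and for each of them the 3-week arrays lay below all 9 others. By contrast, Hmgb2, a chromatin protein of dividing cells (0.84, adjusted p = 0.0656), Pirb, an inhibitory receptor of myeloid cells (1.65, 0.0787), and the lysosomal protease gene Ctse (1.69, 0.0838) were higher at 12 weeks than in any other wild-type array. Pirb has close relatives that probes may not separate, and its value is uncertain. Noct, a gene of the circadian clock output, was both lowest at 3 weeks and highest at 12 weeks (0.94).

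The uncalled genes that were lower at 12 weeks included signalling regulators and genes of oligodendrocytes. Dusp10, a phosphatase that switches off stress-activated kinases, was at 9.97, 10.47 and 10.47 at 3 weeks and at 9.11, 9.36 and 9.04 at 12 weeks, a difference of -1.13 (adjusted p = 0.0642), with 0-week arrays at 8.68 to 9.09. Dusp26, of the same phosphatase family, differed by -1.32, and Gab1, an adaptor of growth factor receptors, by -0.89. Lrrc8b, a subunit of volume-regulated anion channels, differed by -1.17, and Gabrb2, a GABA-A receptor subunit, by -1.21 with arrays at 8.34, 8.54 and 8.57 against 7.20, 7.37 and 7.26. Gpr37, a receptor of myelinating oligodendrocytes, differed by -0.99 and Tmem98 by -0.91, and both were lower at 12 weeks than in any other wild-type array. B3galt5, a galactosyltransferase, differed by -1.64, Dthd1 by -1.20 and Elapor2 by -1.16. All 10 had adjusted p between 0.0584 and 0.0708.

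In lists of genes grouped by role or cell type, 4 of 540 measured members were called, against 0.082% of all genes. Most of what follows are therefore values that did not pass the test. Each list is given by its median difference, beside the 0.01 of all genes, and by how many members had non-overlapping arrays. The lists were drawn up with earlier results of these data known. Their ranks and counts are therefore descriptions and lend no support to a change. Genes of GABA and vesicle traffic had the lowest median of any pathway list, -0.43. Of 16 measured, 15 lay below 0, 2 fell (Nrsn2 and Slc32a1, 0.0564% of all genes having fallen), and 6 had all 12-week arrays below all 3-week arrays, against 8.1% of all genes. Scg2, a granin of dense-core vesicles, was at 8.09, 8.63 and 8.61 at 3 weeks and at 7.02, 7.00 and 7.18 at 12 weeks (-1.38, adjusted p = 0.0891). Syt4, a synaptotagmin of vesicle traffic, was at 8.61, 8.43 and 8.51 and then at 7.10, 7.52 and 8.00 (-0.98, adjusted p = 0.137), which was still above the 0-week arrays of 5.15 to 5.54. Gad1, which makes GABA, was at 6.53, 8.33 and 7.56 and then at 5.82, 6.70 and 5.85 (-1.35, adjusted p = 0.14), where the lowest 3-week array overlapped the 12-week range. Scg3, another granin, ran the other way (0.49).

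Several of these are also neuron markers, and the neuron list lay lower as well. Of 13 measured neuron markers 12 lay below 0, with a median of -0.41, and the list mean was 6.04, 6.68 and 6.74 at 3 weeks and 5.89, 5.71 and 5.91 at 12 weeks. Syp, the synaptic vesicle protein synaptophysin, was at 8.92, 9.65 and 9.56 and then at 8.24, 8.23 and 8.26 (-1.13, adjusted p = 0.0861). Slc17a6, a vesicular glutamate transporter, differed by -1.11, but Slc17a7, its relative of cortical neurons, by 0.02. The axonal neurofilament genes Nefl and Nefm differed by -0.30 and -0.31. The part of neuronal RNA in the vesicle values was not tested.

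The list of p53 target genes, Eda2r included, had its highest mean at 3 weeks. Of 19 measured, 14 lay below 0, 1 fell (against 0.0564% of all genes) and 7 had non-overlapping lower arrays (against 8.1%), with a median of -0.27. The list mean was 6.34 to 6.45 at 3 weeks, 5.99 to 6.22 at 12 weeks and 5.65 to 5.84 at 0 weeks, so the groups did not overlap. Phlda3, an inhibitor of Akt, was at 8.88, 8.57 and 9.10 at 3 weeks and at 7.44, 7.37 and 7.61 at 12 weeks (-1.38, adjusted p = 0.0838). Ccng1, cyclin G1, was at 8.74, 8.53 and 8.68 and then at 7.95, 7.51 and 8.26 (-0.74, adjusted p = 0.146). Cdkn1a, the cell cycle inhibitor p21, was at 11.32, 11.93 and 11.45 and then at 10.74, 9.95 and 10.54 (-1.16, adjusted p = 0.396), and the 0-week arrays spread from 6.54 to 9.29. Mdm2, the ubiquitin ligase that degrades p53, differed by -0.41, while Perp, a gene of cell adhesion and death, had non-overlapping higher arrays (0.78). All of these but Eda2r missed the threshold.

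Genes of the integrated stress response, through which cells under amino acid or protein folding stress switch on Atf4 and its targets, lay between their 3-week and 0-week levels on average. The list mean was 7.67, 7.50 and 7.59 at 3 weeks, 7.35, 7.22 and 7.34 at 12 weeks and 6.89 to 6.99 at 0 weeks, with no overlap. Of 26 measured genes 20 lay below 0 and 9 had non-overlapping lower arrays, against 8.1% of all genes, the median was -0.35, and none was called. Ddit3, which encodes the transcription factor CHOP, was at 9.96, 9.21 and 9.59 and then at 8.44, 8.36 and 8.80 (-1.05, adjusted p = 0.107), against 7.23 to 7.44 at 0 weeks. Trib3, a pseudokinase induced by CHOP, was at 6.51, 6.32 and 6.98 and then at 5.96, 5.92 and 6.05 (-0.63, adjusted p = 0.236). Wars, a tRNA synthetase gene, differed by -0.77. Asns, asparagine synthetase, kept overlapping arrays at 9.09, 8.29 and 9.22 and then 8.73, 8.27 and 8.63 (-0.32, adjusted p = 0.719). Endoplasmic reticulum chaperone genes had a median of -0.12 over 16, which became 0.02 without replicate 1 at 3 weeks.

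Genes of the TGF-beta and BMP pathways, growth factors that steer astrocyte maturation and scarring, lay higher at 12 weeks. Their list mean did not overlap between the times, at 5.90, 5.87 and 5.85 at 3 weeks and 6.23, 6.15 and 6.32 at 12 weeks, and the 0-week arrays lay at 6.11 to 6.17. Of 23 measured, 19 lay above 0 and 9 had non-overlapping higher arrays, against 7.83% of all genes, with a median of 0.33 and no call. These 9 were receptors, targets and antagonists of the BMP branch. Id1, Id2, Id3 and Id4, inhibitors of basic helix-loop-helix factors that BMP signals induce, differed by 1.05, 0.87, 0.87 and 0.79 (adjusted p = 0.107, 0.0897, 0.128 and 0.194). Id2 was at 7.07, 6.87 and 7.27 at 3 weeks and at 7.86, 7.67 and 8.29 at 12 weeks. The BMP receptor gene Bmpr1b differed by 0.73, and the BMP antagonist gene Chrdl1, secreted by astrocytes, went from 6.51, 6.51 and 6.34 to 7.12, 7.25 and 8.16 (1.06, adjusted p = 0.0897). The ligand gene Bmp2 had non-overlapping lower arrays (-0.68).

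Genes of resting astrocytes lay part of the way between their 3-week and 0-week levels. The homeostatic astrocyte list averaged 8.80, 9.08 and 8.86 at 3 weeks, 9.38, 8.97 and 9.41 at 12 weeks and 9.69 to 10.09 at 0 weeks, so that the ranges at 3 and 12 weeks overlapped. Of 18 measured genes 16 lay above 0, with a median of 0.36 and none called, and 3 were non-overlapping higher, or 16.7% against 7.83% of all genes. Aldh1l1, a folate enzyme that marks astrocytes, was at 7.59, 8.06 and 7.59 and then at 8.74, 8.11 and 8.77 (0.79, adjusted p = 0.168). The astrocyte connexin gene Gjb6 differed by 0.81 with overlapping arrays, and the glutamate transporter gene Slc1a2 by 0.54. Kcnj10, the potassium channel Kir4.1 that oligodendrocytes also carry, had non-overlapping lower arrays (-0.68). Proteoglycan matrix genes had 6 of 16 members with non-overlapping higher arrays, against 7.83% of all genes, and a median of 0.25, led by the link protein gene Hapln1 (0.91) and the glypican genes Gpc5 and Gpc6 (0.80 each), whereas Cd44, the hyaluronan receptor, ran the other way at 6.05, 6.29 and 5.49 and then 4.65, 5.18 and 5.38 (-0.87, adjusted p = 0.318).

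Sterol synthesis genes also lay between their 3-week and 0-week levels on average. Of 18 measured, 16 lay above 0 and 3 had non-overlapping higher arrays, or 16.7% against 7.83% of all genes, with a median of 0.34 and no call. Msmo1, a sterol methyl oxidase, was at 6.42, 6.33 and 6.94 at 3 weeks, 7.63, 7.13 and 8.32 at 12 weeks and 8.43 to 8.54 at 0 weeks (1.13, adjusted p = 0.0897). Fdft1, squalene synthase, differed by 0.84 and Dhcr7, the last step of cholesterol synthesis, by 0.56. Apoe, the main lipid carrier of glia, was bright in every array, at 11.16, 11.07 and 10.77 and then at 11.63, 12.02 and 11.84 (0.83, adjusted p = 0.0838), above all 0-week arrays (11.07 to 11.12). Abcg1, a cholesterol exporter, had non-overlapping lower arrays (-0.75).

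**Figure D4:**
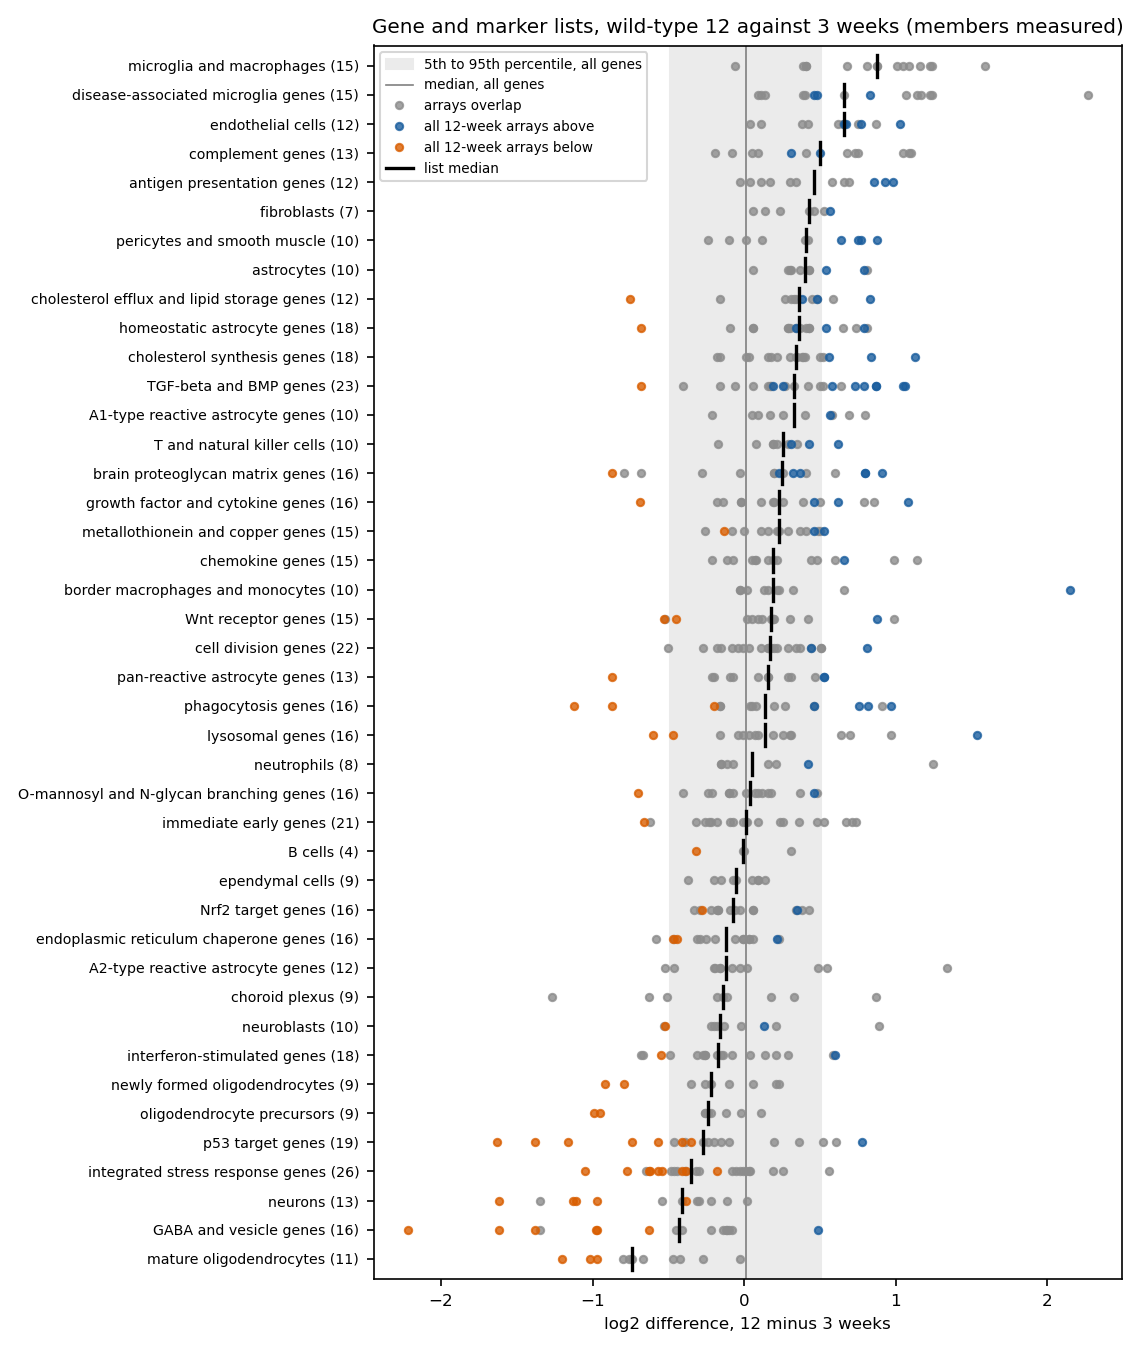
Log2 difference, 12 minus 3 weeks (x axis), of each measured member of 26 gene lists and 17 marker lists (y axis, members measured in brackets, the erythrocyte list with 2 measured members left out), ordered by list median (black bars). Blue and orange points are members whose 3 arrays at 12 weeks all lie above or below the 3 at 3 weeks, and the grey band spans the 5th to 95th percentile of all genes (-0.49 to 0.51). Microglia and macrophage markers (median 0.88) are at the top without a single non-overlapping member, and mature oligodendrocyte markers (-0.74) are at the bottom.

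Genes that carry out phagocytosis lay in both directions within the list. Of 16 measured, 4 had non-overlapping higher and 3 non-overlapping lower arrays, against 7.83% and 8.1% of all genes, with a median of 0.14 and no call. The median became -0.06 without replicate 3 at 3 weeks. The engulfment adaptors Elmo1 and Dock1, which together activate Rac, were lower at 12 weeks (-1.12 and -0.87, adjusted p = 0.0838 and 0.079). Elmo1 was at 7.86, 7.94 and 8.31 at 3 weeks and at 6.70, 7.21 and 6.83 at 12 weeks. The receptor gene Mertk (0.97), the bridging protein gene Mfge8 (0.76) and the adaptor gene Gulp1 (0.82, adjusted p = 0.125) were higher. Gulp1 was at 6.59, 6.06 and 6.54 and then at 7.11, 7.03 and 7.50.

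No reactive astrocyte gene of the lists passed the test between the 2 times. Gfap, the intermediate filament of astrocytes, was at 7.93, 8.92 and 7.71 at 3 weeks and at 8.17, 8.31 and 9.02 at 12 weeks (0.31, 95% interval -0.66 to 1.29, adjusted p = 0.853), both above the 0-week arrays of 5.90 to 6.55. Serpina3n, a protease inhibitor of reactive astrocytes, was at 8.92, 9.47 and 8.78 and then at 8.60, 8.86 and 9.11 (-0.20, 95% interval -0.94 to 0.54, adjusted p = 0.881). These intervals are wide enough to hold a difference of nearly 1, so they do not show that the levels were equal. The pan-reactive list had a median of 0.16 over 13 genes, the A1-type list 0.33 over 10 and the A2-type list -0.12 over 12. Immediate early genes had a median of 0.01 over 21, Nrf2 targets -0.07 over 16, and metallothionein and copper genes, of interest because cuprizone binds copper, 0.23 over 15. Mgat5b, which encodes GnT-IX, was at 5.78, 6.49 and 5.85 at 3 weeks and at 5.96, 5.88 and 5.57 at 12 weeks (-0.24, adjusted p = 0.721), and the O-mannosyl and N-glycan branching list had a median of 0.04 over 16. Mgat3, which adds the bisecting residue of N-glycans, was its lowest member (-0.70, adjusted p = 0.19).

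**Figure D5:**
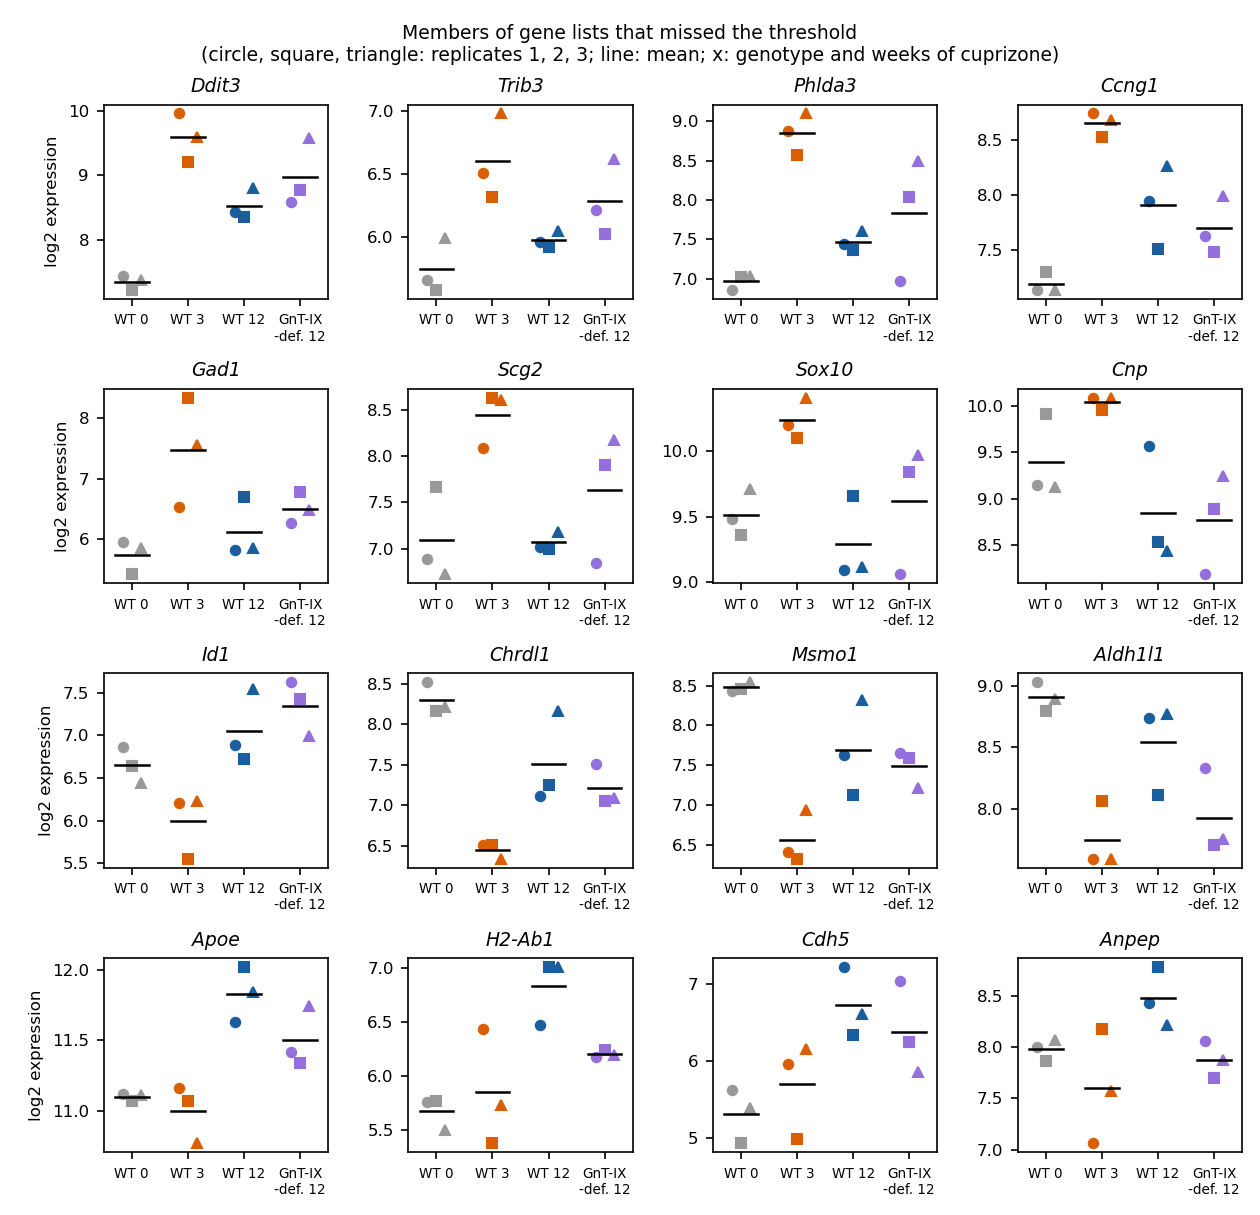
Log2 expression (y axes, not starting at 0) of 16 list members that missed the threshold, by genotype and weeks of cuprizone (x axes), with circles, squares and triangles for replicates 1, 2 and 3 and a line at each group mean. Ddit3, Phlda3 and Scg2 are highest at 3 weeks, Id1, Chrdl1 and Msmo1 lowest, and Apoe is highest at 12 weeks.

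Mature oligodendrocyte markers lay lower at 12 weeks, and so did most markers of newly formed oligodendrocytes. All 11 measured mature oligodendrocyte markers were below 0, 3 of them with non-overlapping arrays against 8.1% of all genes, and the median of -0.74 was the lowest of all lists, yet none was called. Cnp, a myelin enzyme, was at 10.09, 9.96 and 10.09 at 3 weeks and at 9.57, 8.53 and 8.43 at 12 weeks (-1.20, adjusted p = 0.137). Mog, a myelin surface protein, differed by -0.97, Ermn, a cytoskeletal protein of myelin, by -1.02, and Mbp, the myelin basic protein, by -0.03. The lineage factors Sox10 and Olig2 were also lower, at -0.95 and -0.99 (adjusted p = 0.124 and 0.125), with Sox10 at 10.20, 10.10 and 10.41 and then at 9.09, 9.66 and 9.12. The precursor list as a whole had a median of -0.24, which became 0.05 without replicate 3 at 12 weeks. Of 9 measured markers of newly formed oligodendrocytes 6 lay below 0 and 3 above, with a median of -0.22 and no call. Non-overlapping lower arrays were seen for 2 of them, or 22.2% against 8.1% of all genes, and non-overlapping higher arrays for 0. Nkx2-2, a lineage transcription factor, was 1 of the 2 (-0.79, adjusted p = 0.154). Enpp6, the lowest of them, was at 7.88, 7.81 and 8.48 and then at 7.30, 6.98 and 7.13 (-0.92, adjusted p = 0.23), whereas Bcas1, Itpr2 and Bmp4 differed by 0.21, 0.23 and 0.06.

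Endothelial markers, most pericyte and smooth muscle markers and class II antigen presentation genes lay higher, and immune cell lists differed among themselves. All 12 endothelial markers were above 0, 4 with non-overlapping arrays against 7.83% of all genes, with a median of 0.66, and the list mean was 6.44, 5.53 and 6.30 at 3 weeks and 6.85, 6.42 and 6.75 at 12 weeks. Cdh5, the endothelial cadherin, differed by 1.03 (adjusted p = 0.24). Pericyte and smooth muscle markers had 4 of 10 non-overlapping higher, against the same 7.83%, and a median of 0.41, led by Anpep (0.88) and Kcnj8 (0.77), a potassium channel of pericytes. Of the 10, 2 lay below 0, Cspg4 (-0.24) and the smooth muscle gene Myh11 (-0.10). The smooth muscle genes Acta2 (0.12) and Tagln (0.01) lay near 0. Class II antigen presentation genes H2-Ab1, H2-Eb1 and H2-Aa, whose sequences are similar and whose values are less certain for it, differed by 0.98, 0.93 and 0.86 with non-overlapping arrays. H2-Ab1 was at 6.44, 5.38 and 5.73 and then at 6.47, 7.01 and 7.01 (adjusted p = 0.114). The list of border macrophages and monocytes had a median of 0.19 over 10 genes, that of T and natural killer cells 0.26 over 10, that of neutrophils 0.05 over 8 and that of B cells -0.01 over 4, and the neutrophil and B cell medians changed sign in 4 alternatives each. Ms4a7 was the highest of the border macrophage list, at 6.64, 4.62 and 5.55 and then at 6.70, 8.61 and 7.94 (2.15, adjusted p = 0.0964), while Pf4, F13a1, Cd163 and Ccr2 of the same list differed by 0.13, 0.02, -0.03 and -0.03.

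Values of microglial genes depended on whether replicate 1 at 3 weeks was counted. In all 6 arrays, 14 of 15 microglia and macrophage markers lay above 0 with a median of 0.88, and 0 had non-overlapping arrays, against 7.83% of all genes. The list mean of replicate 1 at 3 weeks, 8.76, lay within the 12-week range. Tyrobp, a signalling adaptor of microglia, was at 9.79, 7.41 and 7.25 at 3 weeks and at 8.85, 10.11 and 9.21 at 12 weeks (1.24, adjusted p = 0.397). Mmp12, the macrophage elastase, was at 9.26, 6.23 and 5.46 and then at 9.09, 9.81 and 8.85 (2.27, adjusted p = 0.206). Without that array limma called 146 of 19505 genes (0.749%), of which 92 rose (0.472%) and 54 fell (0.277%), and the 16 genes above were among them. The array was singled out for its high microglial markers, so that leaving it out by itself moves microglial and phagocyte genes towards a higher level at 12 weeks. The microglial median of 1.58 in that fit, and the 6 of 15 microglial markers past the threshold there, are therefore descriptions of the remaining arrays and support no rise. Csf3r (1.89), Ms4a7 (2.67), H2-Ab1 (1.27) and Mmp12 (3.40) also passed there. Replicate 1 was the highest 3-week array for each, so their calls support no rise either. Among 16 GABA and vesicle genes, Gad1 and Scg2 passed in that fit beside Nrsn2 and Slc32a1, lower at 12 weeks. Replicate 1 was the lowest 3-week array for each of these genes. Leaving it out by itself widens their differences, so these calls lend no added support either. Only 2 arrays stand for 3 weeks in that fit.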

How the data were processed

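RNA of GLAST-selected white matter cells was measured on 12 Affymetrix arrays, labelled with a 3' IVT Pico kit per the labels' protocols. Per the submitters' processing notes, the authors used Affymetrix Expression Console 1.4 with RMA, and deposited log2 values. RMA makes the arrays share a like distribution and compresses differences of dim transcripts. RNA came from either of a pair of extraction kits, and which kit went with which sample, the sex of the mice and the genome build are not given in the sources used here. Depth does not apply to arrays, whose number limits the precision.

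Of 22206 transcript clusters, 19572 had 1 symbol in the platform annotation and all matched RefSeq by Entrez identifier, and 2634 unnamed ones stayed out of the gene test. The brightest cluster stood for each of 55 genes with several, giving 19505 genes with no filter. Groups came from sample titles. limma 3.58.1 in R 4.3.3 (lmFit, eBayes, two-sided, 8 residual degrees of freedom) tested 12 minus 3 weeks in a fit of 4 group means over all 12 arrays, and was tested on simulated data. The 20 alternatives changed the arrays, scaling, filter, clusters, variance model, block, covariates or minimum fold. Same-numbered arrays did not deviate together (r = -0.28, -0.17 and 0.18).

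Named were Slc1a3, Gfap, Mgat5b and Serpina3n, all called genes, the 10 uncalled genes a direction with the smallest p and non-overlapping arrays, and per list the called members or, with none, the 4 with the smallest p. Other list members, such as Phlda3, Ccng1, Cdkn1a, Mdm2, Gad1, Scg2, Syt4, Syp, Id4, Bmpr1b and Mertk, were named after their values were seen. The comparison and the lists were chosen with earlier results of these data known. Figures used matplotlib 3.10.9.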

Additional observations from a re-analysis of the deposited data

Results flagged for a closer look

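A pair of transcript clusters that carry no gene symbol here, and so lie outside the gene test, differed more between the times than any named gene. Cluster TC0Y00000223.mm.2 was at 11.18, 10.75 and 10.22 at 3 weeks and at 5.78, 6.14 and 5.13 at 12 weeks, a difference of -5.03 (SE 0.34, limma adjusted p = 5.51e-06 over all 22206 clusters). It was at 5.72 to 6.29 in the 0-week arrays and at 10.61, 10.74 and 9.40 in the GnT-IX-deficient arrays. Cluster TC0X00001715.mm.2 was at 10.12, 9.71 and 9.29 at 3 weeks and at 6.68, 7.47 and 6.12 at 12 weeks, a difference of -2.95 (SE 0.34, adjusted p = 0.00276). It was at 6.53 to 6.59 at 0 weeks and at 9.32, 9.23 and 8.14 in the GnT-IX-deficient arrays. Both were thus high in the wild-type 3-week and GnT-IX-deficient 12-week groups and low in the other 2 groups. The Y-linked genes Kdm5d, Eif2s3y and Uty lay between 1.89 and 2.88 in all 6 arrays compared, below the lower quartile of every array (3.84 to 3.94), and Kdm5d reached 5.14 in GnT-IX-deficient replicate 2. What sets these clusters was not tested, nor whether the groups differed in the sex or substrain of the mice, which are not given in the sources used here. A difference in substrain and weeks of diet cannot be told apart in any of the differences between the times. On sex, only these Y-linked values were looked at, and they were low at both times.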

How the results depend on the processing

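The direction of the 16 called genes held in all 20 alternatives, with no reversal among 314 values, of which 180 stayed past the threshold and 134 missed it. In many of these settings no reversal was possible, as the difference was unchanged or the arrays did not overlap, so this lends no support. The minimum fold could not remove a call either, since the smallest called size was 1.25. The count of 16 became 9 with only the 6 arrays compared, and 6 of these were shared with the 16. All 9 were lower at 12 weeks, so 0 of the 5 rises passed there. Without the dimmest 30% of genes (a smaller set of genes tested) the count was 9, with 1 higher and 8 lower. It became 28 with only the 9 wild-type arrays, 30 with trend and robust variance and 33 with array weights. It became 0 in the test against a fold of 1.2 (limma treat, 755 genes at an unadjusted p under 0.05) and 0 with the microglial or the mature oligodendrocyte marker mean as a covariate. Leaving out 1 array gave 0 to 146 calls. The cause of these changes was not tested, except that leaving arrays out leaves fewer samples. With the replicate number as a block, limma called 15 genes, 12 of them shared with the 16, although the numbers did not pair the arrays. Rescaling moved the median of all genes by at most 0.02 in size.

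Among other named genes, 16 of 3643 values changed sign, all in genes that were not called. With the oligodendrocyte covariate these were Slc1a3 (-0.12), Gfap (-0.08), Rsph1 (0.25), Dynlrb2 (0.56) and Asns (0.07), and with array weights Cd79b (0.02) and Slc4a1 (-0.01). Leaving out 1 array gave -0.34 to 0.01 for Serpina3n, -0.12 to 0.13 for Cd79b, -0.59 to 0.05 for Gpr17, -0.04 to 0.92 for Dcn, -0.18 to 0.40 for Mia and -0.09 to 0.14 for Slc4a1. Signal over background was not measured, so low values near the lower quartile have uncertain sizes.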
